A study of Arabidopsis thaliana with 9 samples.

Results

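The genes of the chloroplast genome were taken as all 133 loci of the count table whose identifier starts with ATCG, of 33602 loci in all. They comprised 86 protein genes, 8 ribosomal RNA loci, 37 transfer RNA loci and 2 loci that the names used here do not cover. RNA had been sequenced from whole seedlings of Arabidopsis thaliana, roots and shoots together, grown on MS medium of reduced strength for 6 days at 20 °C after 3 days of stratification. The genotypes were emb1579-1, emb1579-3 and the wild type Col-0, with 3, 3 and 2 libraries used here. Both mutant lines are rsa1 lines with a mutation in EMB1579, also called RSA1, a nuclear gene whose product is known as a calcium-sensing protein needed for growth in salt. Both are in the Col-0 background, and the labels do not describe the alleles further. The series asked how EMB1579 bears on genes of root growth and development.

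The libraries held 24055325 to 37518182 counts, and 7223380 to 12560216 of these fell on chloroplast loci. Col-0 replicate 3, a library of 1179413 counts, was left out. EMB1579 had 46.8, 48.9 and 47.7 CPM (counts scaled to library totals corrected by edgeR's TMM factors) in the libraries labelled emb1579-1, 2.11, 1.08 and 1.13 CPM in the emb1579-3 libraries, and 48.6 and 48.9 CPM in Col-0. The first line was thus at the Col-0 level for the gene it is named for, so its libraries are called by their label throughout. The 3 columns used for emb1579-3 carry another number in their names than the labels give, and were matched to that line by elimination of names.

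The chloroplast genome is a small circular molecule that encodes part of the photosynthetic machinery, the large subunit of Rubisco, a bacterial-type RNA polymerase and part of the chloroplast's own ribosomes. Its genes are transcribed by that plastid-encoded polymerase, which needs sigma factors encoded in the nucleus, and by phage-type polymerases that are nuclear genes as well. Photosynthesis genes depend mostly on the first enzyme, while rpoB, rpoC1 and rpoC2 of the polymerase core have a promoter of the second kind. Many chloroplast genes are transcribed in clusters, and RNA processing and stability set much of their level. Chloroplast transcripts carry no stable poly(A) tail, and no source used here says whether the libraries were selected for such tails.

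Chloroplast loci took a smaller share of all counts in both mutant lines than in Col-0. The share was 30.6%, 31.0% and 30.0% in the libraries labelled emb1579-1, 32.1%, 30.9% and 29.9% in the emb1579-3 libraries, and 33.7% and 33.5% in the Col-0 libraries. All 6 mutant libraries lay below both Col-0 libraries, and the ranges of the mutant lines overlapped. The means were 30.5% ± 0.492 (SD, n = 3), 31.0% ± 1.102 (SD, n = 3) and 33.6% ± 0.151 (SD, n = 2), so that the lines were lower by 3.05 and 2.59 percentage points. Two-sided exact permutation tests gave p = 0.1 for the libraries labelled emb1579-1 and p = 0.2 for emb1579-3, where 0.1 is the smallest p that 3 libraries against 2 allow. Over the 3 genotypes together the exact permutation p was 0.0607, and between the mutant lines it was 0.7. Clopper-Pearson intervals at 95% for a single library were at most 0.0368 percentage points wide, and cover counting error only.

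**Figure D1:**
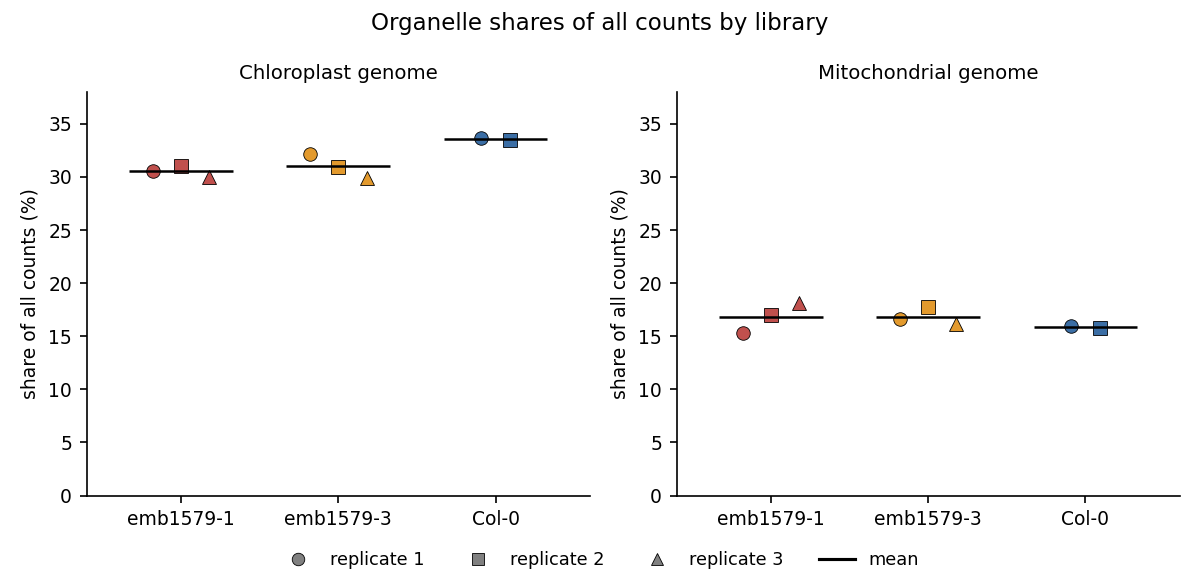
Share of all counts, in percent, on the chloroplast genome (left) and on the mitochondrial genome (right), with 1 point per library and a line at each group's mean. The chloroplast shares of the 6 mutant libraries, 29.9% to 32.1%, lie below the Col-0 shares of 33.5% and 33.7%. The mitochondrial shares of the libraries labelled emb1579-1, 15.3% to 18.2%, overlap those of Col-0, 15.8% to 15.9%. Those of emb1579-3, 16.2% to 17.7%, lie above both Col-0 libraries.

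The share of mitochondrial loci was 15.3% to 18.2% in the libraries labelled emb1579-1, 16.2% to 17.7% in emb1579-3 and 15.8% to 15.9% in Col-0, with exact permutation p-values of 0.5 and 0.2 against Col-0. Per 100 counts on nuclear loci, chloroplast loci had 56.4 to 59.7 counts, 55.5 to 62.7 counts and 66.0 to 66.9 counts, for the libraries labelled emb1579-1, emb1579-3 and Col-0 in turn. In RNA of whole seedlings, fewer chloroplast-rich cells and less chloroplast RNA per cell cannot be told apart. Nuclear markers are given beside the share. Of 7 green tissue markers (small subunits of Rubisco and light-harvesting proteins), 2 (28.6%) were lower and 0 higher in the libraries labelled emb1579-1, against 9.54% of all genes lower and 8.27% higher. In emb1579-3, 3 (42.9%) were lower and 1 (14.3%) higher, against 10.3% and 9.95% of all genes.

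RBCS3B, a Rubisco small subunit gene, was lower in both lines, with log2 fold changes of -0.40 and -0.36 (adjusted p = 0.021 and 0.034), and so was RBCS2B with -0.34 and -0.52 (adjusted p = 0.047 and 0.0036). In emb1579-3, RBCS1B was lower (-0.30, adjusted p = 0.036) and CAB2, a chlorophyll-binding protein gene, was higher (0.44, adjusted p = 0.010). The summed green markers were 14789 to 17488 CPM in the libraries labelled emb1579-1, 15546 to 16816 CPM in emb1579-3 and 16176 to 18615 CPM in Col-0, ranges that overlap. Of 11 root markers tested, 3 (27.3%) and 5 (45.5%) were lower and 0 were higher, against 9.54% and 10.3% of all genes lower. Among those called in both lines were CASP1, a Casparian strip gene (-1.21 and -1.06), and the root hair oxidase gene RHD2 (-0.73 and -0.53). The medians over the list were -0.10 and -0.01, and 7 and 6 of the 11 had log2 fold changes below 0. PLT2, a root meristem transcription factor gene that was not called, had 0.86 and 0.70 (adjusted p = 0.076 and 0.15), and SCR, a gene of the root ground tissue, had 0.04 and 0.08. The sums over the root markers were 42.0 to 52.1 CPM, 44.1 to 51.1 CPM and 54.4 to 57.9 CPM, for the libraries labelled emb1579-1, emb1579-3 and Col-0 in turn, and the mutant libraries were all below Col-0. No marker of either list was at 0 in any library. Of the 14 calls on both marker lists, 4 held whichever library was left out (RBCS2B in emb1579-3, CASP1 in both lines and RHD2 in the libraries labelled emb1579-1). Without Col-0 replicate 1 the others were lost except that of CAB2, which was lost without Col-0 replicate 2, with adjusted p up to 0.301. The part of tissue makeup in the chloroplast results was not tested.

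Counts within the chloroplast genome were concentrated in few genes. The 6 genes rbcL, psbA, psaA, psaB, psbC and psbB together held 69.9% to 71.1% of chloroplast counts in the libraries labelled emb1579-1, 70.8% to 72.3% in emb1579-3 and 70.3% to 70.9% in Col-0, and 4 genes held over 50% in each of the 8 libraries. Corrected for exon length, rbcL and psbA led with means of 40086 and 38383 CPM per kb over the 8 libraries, against 389 CPM per kb for the polymerase gene rpoB.

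Each gene was tested with edgeR's quasi-likelihood test on all 20668 genes that passed its expression filter, with Benjamini-Hochberg adjustment over all of them and a threshold of 0.05. Of the 133 chloroplast loci, 129 passed the filter; the 4 others were the transfer RNA loci trnI.1, trnI.4, trnL.2 and trnL.4. In the libraries labelled emb1579-1, 2 chloroplast loci were higher and 24 lower than in Col-0, where 17.8% of all genes tested were called, 8.27% higher and 9.54% lower. In emb1579-3, 0 were higher and 29 lower, where 20.3% of all genes were called, 9.95% higher and 10.3% lower; 44 chloroplast loci had an unadjusted p under 0.05 there, and DESeq2 also called 0 higher. Lower calls thus made up 18.6% and 22.5% of the chloroplast loci tested. Median log2 fold changes were -0.22 and -0.19 over chloroplast loci and 0.00 in both comparisons over all genes tested.

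Both comparisons share the Col-0 libraries, so the overlap of their calls is not independent: 21 loci were lower in both, 87.5% of the list of the libraries labelled emb1579-1 and 72.4% of that of emb1579-3. Between emb1579-3 and the libraries labelled emb1579-1, 0 of 129 chloroplast loci were called, where 0.416% of all genes were higher and 0.402% lower, 0.818% in all; 4 had an unadjusted p under 0.05, and DESeq2 called 1 higher and 2 lower. The calls against Col-0 lean on its libraries. Without Col-0 replicate 2 the lower calls numbered 10 and 17, and without emb1579-3 replicate 3 that line had 16. With Col-0 replicate 3 put back, 0 loci were called in either direction, and 30 and 27 had an unadjusted p under 0.05. Of the 26 and 29 calls, 9 and 6 held whichever of the 8 libraries was left out, and psbD, psbH and trnT.2 were among these in both lines.

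Photosystem II held more lower calls than any other group of protein genes in both lines. All 15 had log2 fold changes below 0 in both lines, as had all 6 cytochrome b6f genes and all 6 ATP synthase genes. Of the 129 chloroplast loci tested, 102 and 104 were below 0, and of all 20668 genes 10275 and 10399 were. The photosystem II medians were -0.41 and -0.37. In the libraries labelled emb1579-1, 7 photosystem II genes were lower (46.7%, against 9.54% of all genes), and in emb1579-3, 10 were lower (66.7%, against 10.3%), with 0 higher in either. Without Col-0 replicate 1, 4 genes were lower in each line, and without Col-0 replicate 2, 4 and 7 were. When fold changes were instead taken relative to the chloroplast total, 11 and 14 of the 15 were below 0 and 3 were lower in each line. In CPM, 13 of the 15 genes had all 6 mutant libraries below both Col-0 libraries, the others being psbA and psbF. So did 47 of the 133 chloroplast loci and 16.9% of all genes tested.

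psbD, which encodes the D2 protein of the reaction centre, had 9540, 9394 and 8989 CPM in the libraries labelled emb1579-1, 9651, 8834 and 8509 CPM in emb1579-3, and 14033 and 12296 CPM in Col-0. All mutant libraries were below both Col-0 libraries, while the mutant lines overlapped, and psbD was called in both lines whichever library was left out. Its log2 fold changes were -0.50 (SE 0.10, adjusted p = 0.0025) and -0.55 (SE 0.10, adjusted p = 0.0011). psbC, which encodes the inner antenna protein CP43 and shares a transcript with psbD, had 27562, 26257 and 27192 CPM in the libraries labelled emb1579-1, 28073, 29560 and 27945 CPM in emb1579-3, and 38577 and 35373 CPM in Col-0. It too was lower in both lines without overlap, with log2 fold changes of -0.45 and -0.37 (adjusted p = 0.0044 and 0.014), the second call being lost without Col-0 replicate 1 or without emb1579-3 replicate 1 (adjusted p up to 0.112).

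The psbC reading frame begins inside psbD, so that 53 bases belong to both genes and reads there could be counted for either. The stretch is shown because both genes carry the photosystem II result. It lies at Pltd:33720-33772 on the plus strand of TAIR10.1 (RefSeq), and capitals mark the annotated start codon of psbC.
psbD-psbC overlap: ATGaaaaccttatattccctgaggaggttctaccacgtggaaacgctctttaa

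psbB, which encodes the inner antenna protein CP47, heads a cluster with psbT, psbH, petB and petD. It had 23775, 22792 and 23958 CPM in the libraries labelled emb1579-1, 21951, 24124 and 22230 CPM in emb1579-3, and 31741 and 27120 CPM in Col-0. All mutant libraries were below both Col-0 libraries, and psbB was lower in both lines, with log2 fold changes of -0.32 and -0.37 (adjusted p = 0.043 and 0.019). Without Col-0 replicate 1 neither call held, and 3 further libraries ended the first and 2 the second, with adjusted p up to 0.352 and 0.222. psbH, a small phosphoprotein gene of the cluster, was lower in both lines under every left-out library, with -0.41 and -0.42. psbT, a small subunit gene, was lower in emb1579-3 (-0.58, adjusted p = 0.0029), and had -0.36 (adjusted p = 0.052) in the libraries labelled emb1579-1. psbN lies in this cluster on the other strand, and without a known strand setting its reads cannot be told from theirs.

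psbL had the lowest log2 fold change of the photosystem II genes in both lines. It encodes a small subunit at the interface of the photosystem II dimer and lies in the cluster psbE-psbF-psbL-psbJ. Its level was 231, 293 and 345 CPM in the libraries labelled emb1579-1, 319, 351 and 220.2 CPM in emb1579-3, and 569 and 554 CPM in Col-0. The log2 fold changes were -0.96 (SE 0.22, adjusted p = 0.021) and -0.92 (SE 0.22, adjusted p = 0.022). Both were lost when either Col-0 library was left out, and the first also without emb1579-1 replicate 2, with adjusted p up to 0.134 and 0.146. Relative to the chloroplast total they were -0.73 and -0.75 (adjusted p = 0.0054 and 0.0049), and both held there under every left-out library.

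psbL differed from its own neighbours in the cluster, a comparison chosen after values were seen and so given without a test. Per 100 counts of psbJ, the next gene downstream, psbL had 79.7, 103 and 121 counts in the libraries labelled emb1579-1, 110, 110 and 79.0 counts in emb1579-3, and 163 and 153 counts in Col-0. All mutant libraries were below both Col-0 libraries, while the mutant lines overlapped. psbJ itself was lower in both lines, with -0.31 and -0.26 (adjusted p = 0.021 and 0.045), calls lost without either Col-0 library and without several mutant libraries (adjusted p up to 0.167). psbE, which encodes a subunit of cytochrome b559, had -0.19 (adjusted p = 0.22) and -0.32 (adjusted p = 0.028, up to 0.167 without Col-0 replicate 1 or emb1579-3 replicate 1 or 3). psbF, which encodes the other subunit, had 6.06 to 8.95 CPM, 6.96 to 8.43 CPM and 7.45 to 10.6 CPM, for the libraries labelled emb1579-1, emb1579-3 and Col-0 in turn, although it lies 9 bases from psbE and 21 bases from psbL.

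The coding sequences of psbF, psbL and psbJ are shown because these adjacent genes differed so much in level and change, and those of psbM and petN because they are other very short genes with low values in the mutant lines. All are read 5′ to 3′ from the coding strand of TAIR10.1 (RefSeq), with the start codon in capitals. psbF is at Pltd:63942-64061, psbL at Pltd:63804-63920, psbJ at Pltd:63538-63660 and psbM at Pltd:28707-28811, all on the minus strand, and petN is at Pltd:28089-28178 on the plus strand.
psbF: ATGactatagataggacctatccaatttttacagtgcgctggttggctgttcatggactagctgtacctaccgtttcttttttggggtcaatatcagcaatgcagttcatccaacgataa
psbL: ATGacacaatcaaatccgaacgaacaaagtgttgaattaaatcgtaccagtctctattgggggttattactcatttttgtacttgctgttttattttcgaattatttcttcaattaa
psbJ: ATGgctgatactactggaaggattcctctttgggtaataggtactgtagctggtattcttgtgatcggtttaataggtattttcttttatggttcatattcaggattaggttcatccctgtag
psbM: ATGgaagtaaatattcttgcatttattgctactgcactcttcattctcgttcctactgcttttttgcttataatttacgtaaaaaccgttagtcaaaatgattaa
petN: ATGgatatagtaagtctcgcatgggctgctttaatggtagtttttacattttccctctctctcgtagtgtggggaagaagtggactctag

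The 5 frames are 90 to 123 bases long, so that a sequenced fragment can be longer than the gene it is counted for. psbM, a small photosystem II subunit, had 104, 112 and 142 CPM in the libraries labelled emb1579-1, 134, 157 and 93.4 CPM in emb1579-3, and 196 CPM in each Col-0 library. The mutant libraries were all lower, but with log2 fold changes of -0.72 and -0.62 (SE 0.22 for both) the adjusted p-values were 0.07 and 0.10.

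psbA, which encodes the D1 protein that is replaced fastest under light, varied more between replicates than between genotypes. It took 9.51%, 16.4% and 13.9% of chloroplast counts in the libraries labelled emb1579-1, 15.1%, 14.2% and 9.24% in the emb1579-3 libraries, and 11.1% and 13.7% in Col-0. Its log2 fold changes were -0.12 and -0.11, with an SE of 0.33 and an adjusted p of 0.86 for both. The low values belong to emb1579-1 replicate 1 and emb1579-3 replicate 3, which were also the libraries with the highest photosystem I shares.

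Among photosystem I genes, psaA and psaB, which encode the core proteins that bind its chlorophylls, took a larger share of chloroplast counts in every mutant library. The psaA share was 13.4%, 11.1% and 11.4% in the libraries labelled emb1579-1, 11.6%, 10.9% and 13.1% in the emb1579-3 libraries, and 9.998% and 9.14% in Col-0. In CPM the groups overlapped, at 33611 to 39864 CPM, 34569 to 37435 CPM and 30822 to 36210 CPM, with log2 fold changes of 0.09 and 0.12 (SE 0.12 for both, adjusted p = 0.65 and 0.52).

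The composition of the chloroplast pool was tested in a second fit with the chloroplast total as library size, which moves the median of all genes by 0.22 and 0.18 on the log2 scale. There psaA was higher in both lines, by 0.32 and 0.31 (adjusted p = 0.033 and 0.040), and psaB by 0.31 and 0.30 (adjusted p = 0.039 and 0.048). These calls were lost without either Col-0 library and without some mutant libraries, among them emb1579-1 replicate 1 for the libraries labelled emb1579-1 and emb1579-3 replicate 3 for emb1579-3, with adjusted p up to 0.253. For the libraries labelled emb1579-1 that fit called 9 chloroplast loci higher and 10 lower, where 25.2% of all genes were higher and 4.52% lower, 29.7% in all. In emb1579-3, 3 were higher and 10 lower, where 21.3% of all genes were higher and 5.32% lower, 26.6% in all. Between the lines it called 0 higher and 1 lower, where 0.823% of all genes were called, 0.256% higher and 0.566% lower.

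The other photosystem I genes and those around them had values below 0. psaJ, a small subunit gene, had -0.22 (adjusted p = 0.23) in the libraries labelled emb1579-1 and was lower in emb1579-3 (-0.42, adjusted p = 0.017, lost without Col-0 replicate 1 or emb1579-3 replicate 2 or 3, with adjusted p up to 0.269). psaC, which carries the terminal iron-sulphur clusters, had -0.30 and -0.24 (adjusted p = 0.12 and 0.20). The assembly factor genes ycf3 and ycf4 had -0.10 and -0.21 in the libraries labelled emb1579-1, with -0.05 and -0.18 in emb1579-3, with adjusted p of 0.21 or more. rps14, the ribosomal protein gene transcribed with psaA and psaB, had -0.18 and -0.08 (adjusted p = 0.28 and 0.68).

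The balance between the photosystems was described with ratios that were chosen after values were seen and were not tested. Per 100 counts of psbB, psaA had 168, 147 and 141 counts in the libraries labelled emb1579-1, 170, 143 and 168 counts in emb1579-3, and 114 counts in each Col-0 library. Per 100 counts of rbcL, psaA had 76.7, 69.5 and 69.6 counts in the libraries labelled emb1579-1, 62.3, 57.7 and 72.2 counts in emb1579-3, and 48.8 and 46.1 counts in Col-0. Neither of these ratios overlapped between mutant and Col-0 libraries. Per 100 counts of psbA, psaA had 67.4 to 141 counts in the libraries labelled emb1579-1, 76.6 to 142 counts in emb1579-3, and 66.5 and 90.1 counts in Col-0, which overlap. Over the whole groups, photosystem I genes had 60.0 to 86.2 counts per 100 photosystem II counts in the libraries labelled emb1579-1, 62.4 to 83.8 in emb1579-3, and 50.1 and 57.0 in Col-0.

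**Figure D2:**
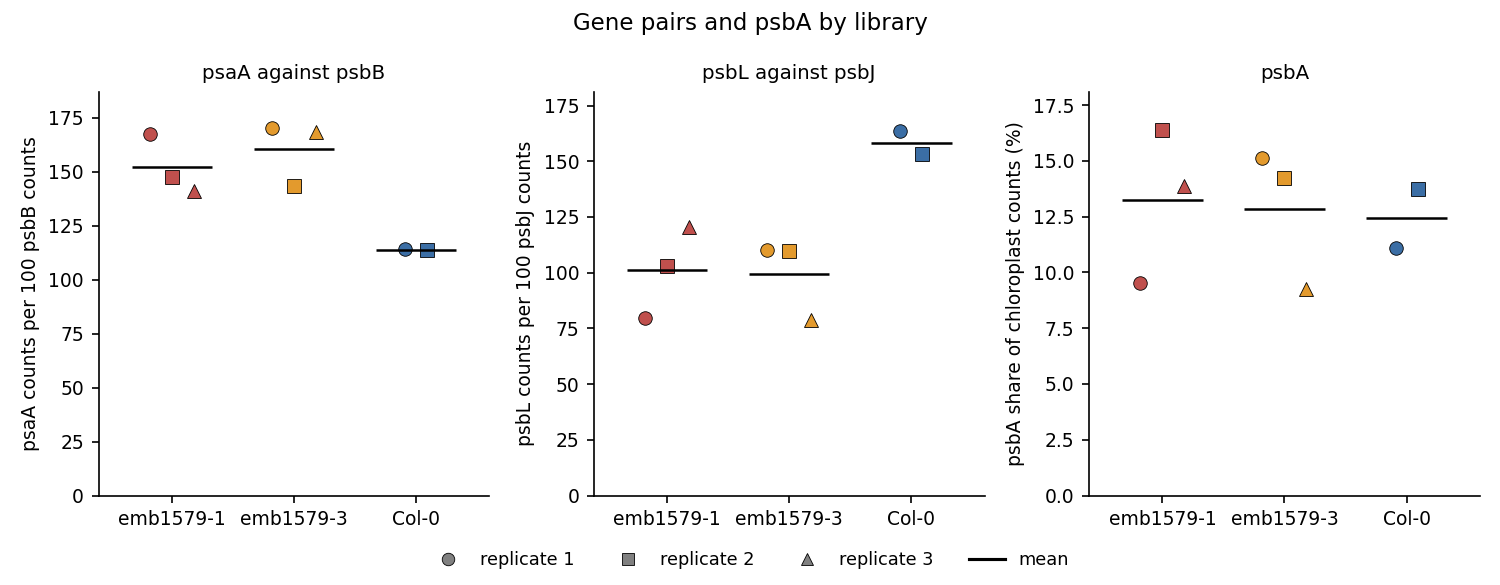
psaA counts per 100 psbB counts (left), psbL counts per 100 psbJ counts (middle) and psbA as a percentage of chloroplast counts (right), with 1 point per library and a line at each group's mean. The first ratio is 141 to 170 in the mutant libraries and 114 in Col-0, the second is 79.0 to 121 in the mutant libraries and 153 to 163 in Col-0, and psbA overlaps.

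rbcL, the gene for the large subunit of the carbon-fixing enzyme Rubisco, was the most abundant chloroplast gene in 7 of the 8 libraries. It had 51942, 48381 and 48561 CPM in the libraries labelled emb1579-1, 60056, 59949 and 51837 CPM in emb1579-3, and 74170 and 66899 CPM in Col-0. The mutant libraries were all below Col-0. It was lower in the libraries labelled emb1579-1 (log2 fold change -0.51, SE 0.11, adjusted p = 0.0035) under every left-out library, and had -0.30 (SE 0.11, adjusted p = 0.064) in emb1579-3. The lines did not differ past the threshold (0.21, adjusted p = 0.55).

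As shares of all counts, photosystem II and rbcL had lower means in both mutant lines and photosystem I had higher ones. Photosystem II genes held 11.01% ± 0.937 of all counts in the libraries labelled emb1579-1, 10.9% ± 1.06 in emb1579-3 (SD, n = 3 each) and 12.8% ± 0.306 in Col-0 (SD, n = 2), differences of -1.81 and -1.94 percentage points. For rbcL the differences were -1.71 and -1.02 percentage points, and for photosystem I they were 0.80 and 0.81. The corresponding differences of the whole chloroplast genome were -3.05 and -2.59 percentage points.

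**Figure D3:**
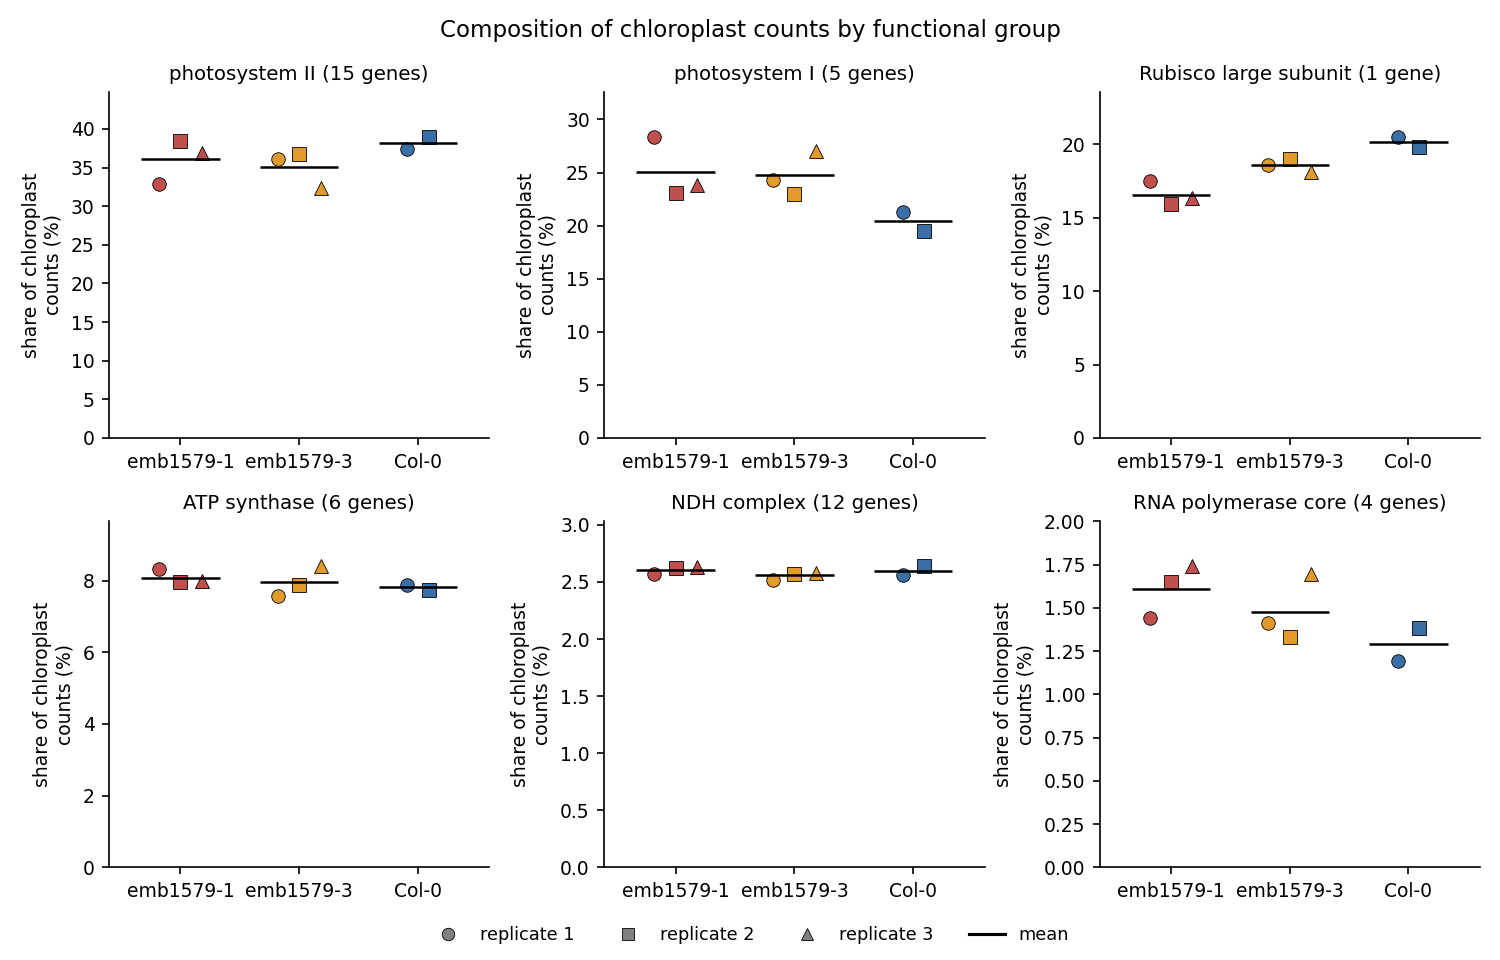
Share of chloroplast counts, in percent, held by 6 functional groups, with 1 point per library and a line at each group's mean. Photosystem I is at 22.9% to 28.3% in the mutant libraries and 19.5% to 21.3% in Col-0, rbcL is at 15.9% to 19.0% and 19.8% to 20.5%, and the other 4 groups overlap between mutant and Col-0 libraries.

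The remaining electron transport complexes held fewer calls. In the cytochrome b6f complex, which links the photosystems, 1 and 2 of 6 genes (16.7% and 33.3%) were lower and 0 higher, against 9.54% and 10.3% of all genes lower. Relative to the chloroplast total, edgeR called 0 of the 6 in either line, and 1 had an unadjusted p under 0.05 in each. petN, a very short subunit gene, had 1002, 729 and 890.3 CPM in the libraries labelled emb1579-1, 973, 1007 and 814 CPM in emb1579-3, and 1281 and 1245 CPM in Col-0. It was lower in both lines, with log2 fold changes of -0.53 and -0.44 (adjusted p = 0.0057 and 0.017), the second call being lost without either Col-0 library or emb1579-3 replicate 3 (adjusted p up to 0.0819). petA, the cytochrome f gene, had -0.02 and 0.00 (adjusted p = 0.92 and 0.98). petB, the cytochrome b6 gene, had -0.25 (adjusted p = 0.11) and was lower in emb1579-3 (-0.34, adjusted p = 0.023), a call lost without Col-0 replicate 1 or emb1579-3 replicate 3 (adjusted p up to 0.129).

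Of 6 ATP synthase genes, 2 (33.3%) were lower in each line and 0 higher, against 9.54% and 10.3% of all genes lower, and all had log2 fold changes below 0 on TMM-scaled totals. Relative to the chloroplast total, 4 and 3 of the 6 were below 0 and edgeR called 0 in either line, with 0 and 1 at an unadjusted p under 0.05. atpI, a subunit of the membrane part, was lower in both lines, with log2 fold changes of -0.29 and -0.44 (adjusted p = 0.041 and 0.003). The first of these calls was lost in 6 of 8 fits that left out a library, among them those without either Col-0 library (adjusted p up to 0.215), and the second held in all 8. atpA and atpB, subunit genes of the catalytic part, had the highest counts of the group. Their log2 fold changes were -0.03 and -0.16 in the libraries labelled emb1579-1, with -0.06 and -0.06 in emb1579-3 (adjusted p of 0.33 or more).

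The NDH complex, which returns electrons to the quinone pool, had 3 and 4 of 12 genes (25.0% and 33.3%) lower and 0 higher, against 9.54% and 10.3% of all genes lower. ndhB.1 was among the lower calls in emb1579-3. Relative to the chloroplast total, edgeR called 0 lower in either line and 1 higher, ndhB.2 in the libraries labelled emb1579-1. That call was lost without either Col-0 library or emb1579-1 replicate 3. On that scale 1 gene had an unadjusted p under 0.05 in each line. ndhB.1 and ndhB.2 are identical copies in TAIR10.1 (RefSeq), so the value of either copy alone is uncertain. ndhK and ndhJ, neighbours in the cluster ndhC-ndhK-ndhJ, were lower in both lines, ndhK by -0.43 and -0.31 (adjusted p = 0.0032 and 0.021) and ndhJ by -0.34 and -0.35 (adjusted p = 0.016 and 0.012). ndhK was called under every left-out library in the libraries labelled emb1579-1. In emb1579-3 both calls were lost without Col-0 replicate 1, and that of ndhK also without emb1579-3 replicate 1 or 3 (adjusted p up to 0.153). That of ndhJ in the libraries labelled emb1579-1 was lost without Col-0 replicate 1 or emb1579-1 replicate 2 or 3 (adjusted p up to 0.129). ndhF, transcribed alone, had -0.45 in both lines (adjusted p = 0.015 and 0.013), calls that were lost without Col-0 replicate 2, and in emb1579-3 also without its replicate 3 (adjusted p up to 0.113). ndhD and ndhA, the members with the highest counts, had -0.11 in the libraries labelled emb1579-1, with -0.16 and -0.09 in emb1579-3 (adjusted p of 0.31 or more).

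**Figure D4:**
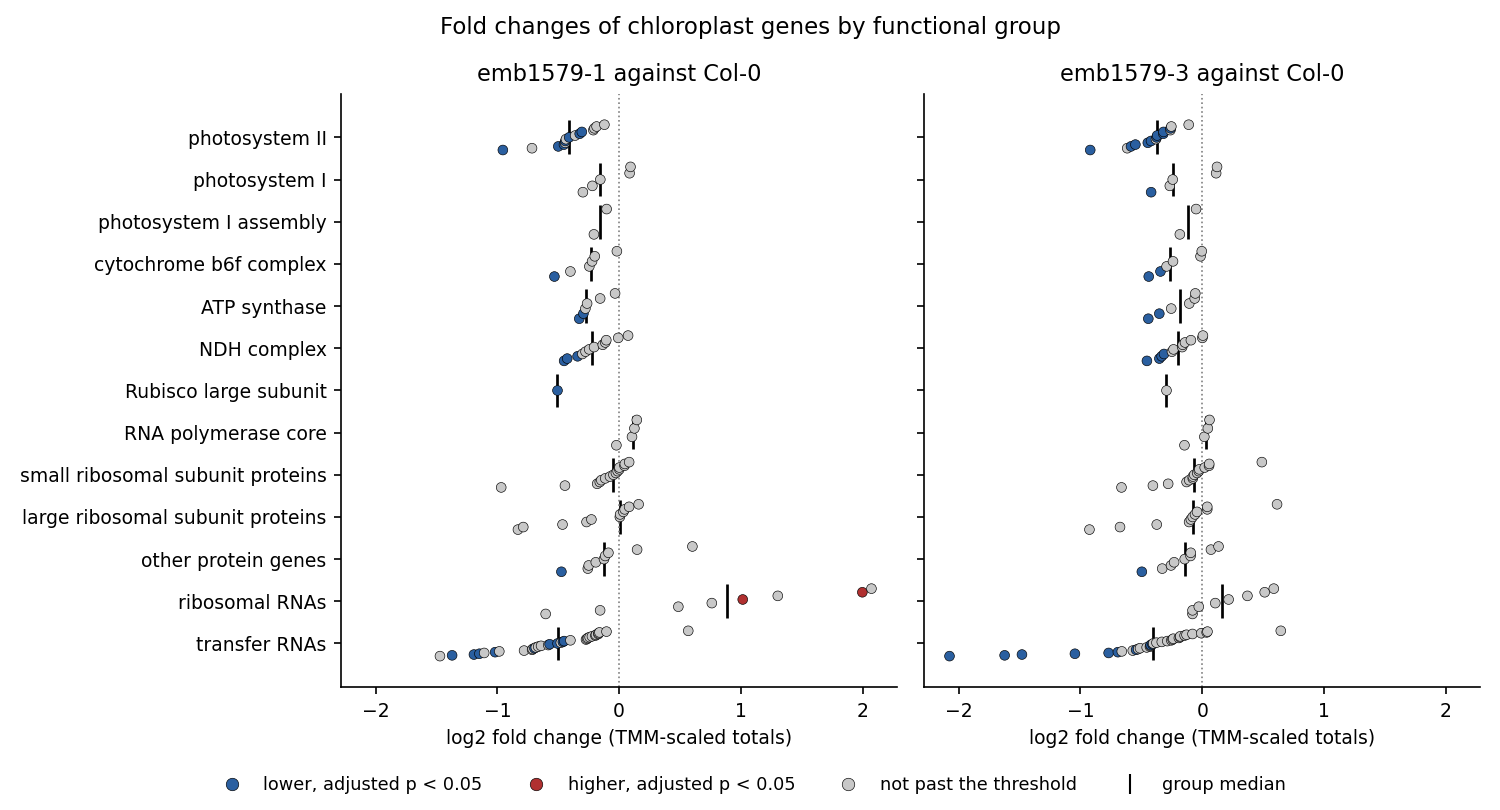
log2 fold changes against Col-0 on TMM-scaled totals for the libraries labelled emb1579-1 (left) and emb1579-3 (right), with 1 point per tested chloroplast gene in 13 functional groups, coloured by the call at an adjusted p of 0.05, and a bar at each group's median. Photosystem II points all lie left of 0, with 7 and 10 lower calls, and so do all cytochrome b6f and ATP synthase points. Relative to the chloroplast total, 11 and 14 of the 15 photosystem II points would lie left of 0. The polymerase and ribosomal protein groups hold no call.

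Polymerase and ribosomal protein genes were not called on TMM-scaled totals. Of the 4 genes for the core of the plastid-encoded RNA polymerase, 0 were called in either line by edgeR or DESeq2, and 0 had an unadjusted p under 0.05, with medians of 0.12 and 0.03. rpoB, a catalytic subunit gene, had 1160, 1357 and 1429 CPM in the libraries labelled emb1579-1, 1220, 1138 and 1328 CPM in emb1579-3, and 1134 and 1245 CPM in Col-0. The groups overlapped. Relative to the chloroplast total, rpoB and rpoC1 were higher in the libraries labelled emb1579-1 (0.36 and 0.33, adjusted p = 0.033 and 0.039, up to 0.284 without Col-0 replicate 1 or emb1579-1 replicate 2 or 3, and for rpoC1 also without Col-0 replicate 2), and 0 of the 4 were called in emb1579-3. The 6 genes listed as having a promoter for the nuclear-encoded polymerase, which are rpoB, rpoC1, rpoC2, accD and both copies of ycf2, had 0 calls and medians of 0.12 and 0.03.

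Of 26 ribosomal protein genes, edgeR called 0 in either line on TMM-scaled totals, while DESeq2 called 1 of them lower in each. Their medians were -0.05 and 0.01 for the small and large subunit in the libraries labelled emb1579-1, with -0.07 and -0.08 in emb1579-3. rpl20 and clpP1, a ribosomal protein gene and the gene for a subunit of the chloroplast protease, were higher as shares of the chloroplast total in the libraries labelled emb1579-1 (0.38 and 0.37, adjusted p = 0.019 and 0.016). Both calls were lost without either Col-0 library or emb1579-1 replicate 3, and that of clpP1 also without emb1579-1 replicate 2 (adjusted p up to 0.124). In emb1579-3 they had 0.23 and 0.25 on that scale (adjusted p = 0.15 and 0.093). Among 9 other protein genes, ccsA, needed for attaching haem to c-type cytochromes, was lower in both lines (-0.47 and -0.50, adjusted p = 0.0071 and 0.0048), which did not hold without Col-0 replicate 2 (adjusted p up to 0.0987). matK, which encodes an intron maturase, had -0.11 and -0.14 (adjusted p = 0.67 and 0.57).

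Nuclear genes for the transcription machinery of the chloroplast were set beside these values. Of 6 sigma factor genes, 4 were lower in the libraries labelled emb1579-1, 3 were lower in emb1579-3 and 0 were higher, against 9.54% and 10.3% of all genes lower. SIG5, which in Arabidopsis is known for transcription of psbD from its light-responsive promoter, had 15.7, 13.9 and 15.5 CPM in the libraries labelled emb1579-1, 18.6, 14.7 and 15.7 CPM in emb1579-3, and 24.9 and 19.7 CPM in Col-0. It was lower in both lines, with log2 fold changes of -0.56 (adjusted p = 0.0024) and -0.44 (adjusted p = 0.011). SIG2 (-0.23 in both) and SIG6 (-0.26 in both) were lower with adjusted p of 0.036 to 0.048, and SIG4 was lower in the libraries labelled emb1579-1 (-0.36, adjusted p = 0.0094). Without Col-0 replicate 1 none of these sigma factor calls held (adjusted p up to 0.257), and those of SIG2 and SIG6 were also lost without Col-0 replicate 2. The part of these genes in the chloroplast results was not tested.

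Of the 3 phage-type polymerase genes, RPOTm, which acts in mitochondria, was higher in emb1579-3 (0.32, adjusted p = 0.045) and had 0.27 (adjusted p = 0.099) in the libraries labelled emb1579-1. RPOTp, the plastid enzyme, had 0.10 and 0.19 (adjusted p = 0.48 and 0.14). Of 12 proteins associated with the plastid-encoded polymerase, PTAC6 was lower in the libraries labelled emb1579-1 (-0.32, adjusted p = 0.0086), and PTAC10 and FSD2 were higher in emb1579-3 (0.38 and 0.45, adjusted p = 0.030 and 0.019). The other 9 were not called in either line. These calls are 8.33% of the list lower in the libraries labelled emb1579-1, against 9.54% of all genes, and 16.7% higher in emb1579-3, against 9.95%. PTAC6 was called whichever library was left out, while RPOTm, PTAC10 and FSD2 were lost without either Col-0 library (adjusted p up to 0.212).

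Ribosomal RNA loci held little of the counts, 0.0179% to 0.0761% of the chloroplast total, and were the only group with higher calls on TMM-scaled totals. The 16S and 23S genes each have an identical copy in the inverted repeat of the genome, and how reads that match both copies were counted is not given, so the value of a single copy is uncertain. rrn23S.2 had 70.5, 64.6 and 52.3 CPM in the libraries labelled emb1579-1, 24.2, 17.1 and 28.9 CPM in emb1579-3, and 11.5 and 19.6 CPM in Col-0. It was higher in the libraries labelled emb1579-1 (log2 fold change 1.998, SE 0.33, adjusted p = 0.012) and had 0.59 (SE 0.33, adjusted p = 0.29) in emb1579-3.

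The other copy, rrn23S.1, had 32.5, 89.3 and 49.2 CPM in the libraries labelled emb1579-1, 46.4, 76.2 and 20.4 CPM in emb1579-3, and 27.1 and 54.2 CPM in Col-0. Its groups overlapped (0.49 and 0.22, adjusted p = 0.73 and 0.88). rrn16S.2 was higher in the libraries labelled emb1579-1, at 16.01, 25.4 and 21.7 CPM, against 13.4, 10.9 and 9.40 CPM in emb1579-3 and 9.25 and 11.5 CPM in Col-0. Its log2 fold change was 1.02 (SE 0.21, adjusted p = 0.010; 0.066 without Col-0 replicate 1) in the libraries labelled emb1579-1 and 0.11 (adjusted p = 0.79) in emb1579-3. Summed over both copies, 23S loci had 101 to 154 CPM in the libraries labelled emb1579-1, 49.3 to 93.3 CPM in emb1579-3, and 38.6 and 73.8 CPM in Col-0. All libraries labelled emb1579-1 were thus above Col-0 and above emb1579-3 in the sum.

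**Figure D5:**
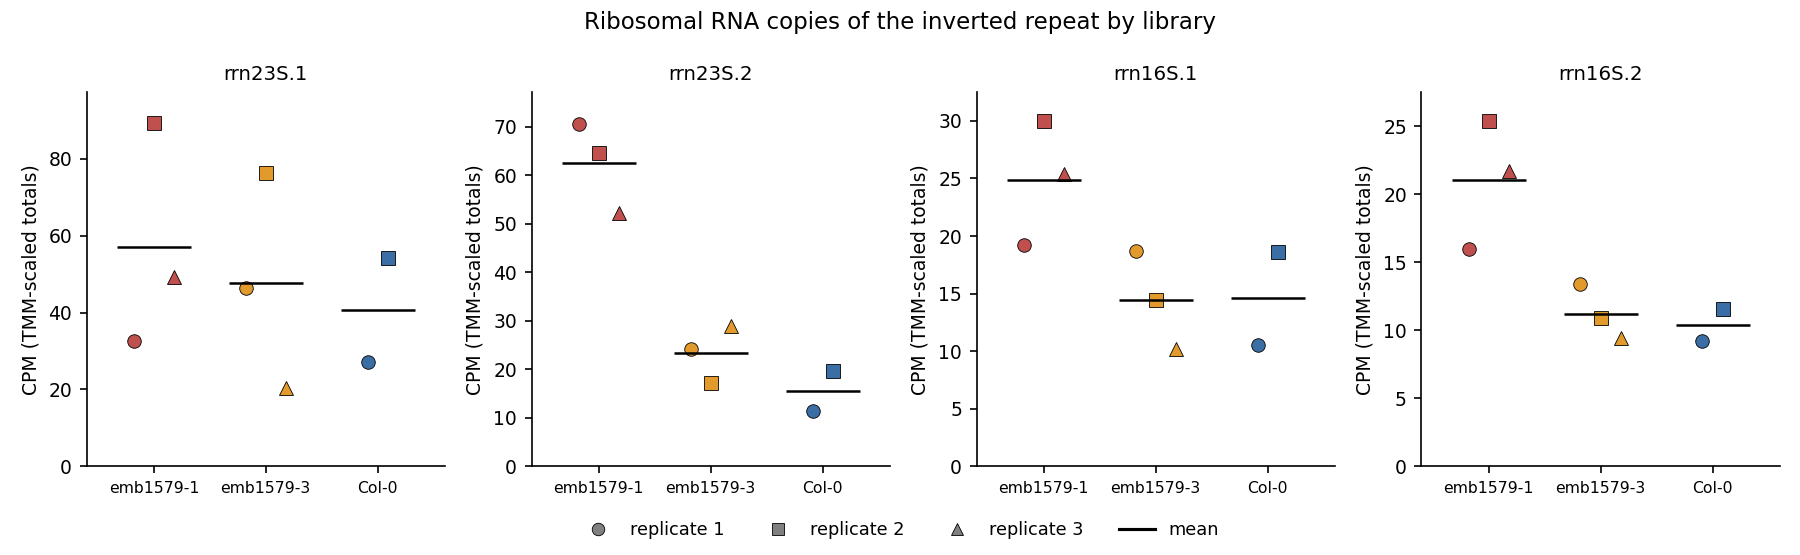
CPM of the copies of the 23S and 16S ribosomal RNA genes in the inverted repeat, with 1 point per library and a line at each group's mean. rrn23S.2 is at 52.3 to 70.5 CPM in the libraries labelled emb1579-1 and at 11.5 to 28.9 CPM in the other libraries, while the groups of rrn23S.1 overlap.

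Of the 33 transfer RNA loci tested, 9 were lower and 0 higher in each line, 27.3% of them against 9.54% and 10.3% of all genes. Without Col-0 replicate 2, 2 of the 9 calls remained in the libraries labelled emb1579-1 (trnT.2 and trnP) and 3 in emb1579-3 (trnR.1, trnS.2 and trnT.2), with adjusted p up to 0.562. The calls lost in both lines were those of trnC, trnE, trnT.1 and trnG.2. The call of trnF, made in the libraries labelled emb1579-1, was also lost. That of trnS.2 was lost without Col-0 replicate 1 in both lines, and without Col-0 replicate 2 in the libraries labelled emb1579-1. trnT.2 had 19.2, 24.02 and 22.8 CPM in the libraries labelled emb1579-1, 24.6, 22.5 and 19.1 CPM in emb1579-3, and 31.6 and 39.7 CPM in Col-0. It was lower in both lines (-0.70 and -0.69, adjusted p = 0.0013 and 0.0012) whichever library was left out. The transfer RNA loci with the highest counts, trnL.1, trnV.1 and trnG.1, contain introns and were not called, with log2 fold changes of -0.16, -0.26 and -0.68 in the libraries labelled emb1579-1, with 0.04, -0.13 and -0.43 in emb1579-3 (adjusted p of 0.068 or more). Relative to the chloroplast total, 6 and 7 of the 33 loci (18.2% and 21.2%) were lower and 0 higher. On that scale 10 chloroplast loci in each line were lower, and 4.52% and 5.32% of all genes. Each of these transfer RNA calls was lost without Col-0 replicate 2.

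Several lower calls of transfer RNA loci came from very few counts and from 1 Col-0 library. trnE, whose product also starts chlorophyll synthesis, had 16, 18 and 24 counts in the libraries labelled emb1579-1, 24, 14 and 20 counts in emb1579-3, and 32 and 106 counts in Col-0. The high value is that of Col-0 replicate 2. The log2 fold changes were -1.37 and -1.48 (adjusted p = 0.018 and 0.011), and neither call held without Col-0 replicate 2 (adjusted p = 0.562 and 0.422). trnL.3, with 9 to 24 counts in the mutant libraries and 28 and 139 counts in Col-0, gave the lowest log2 fold change of emb1579-3 (-2.08, adjusted p = 0.017). That call was lost without Col-0 replicate 2 or emb1579-3 replicate 2 or 3 (adjusted p up to 0.343).

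trnR.1, trnT.1 and trnG.2 were lower in both lines with log2 fold changes of -1.19, -1.15 and -1.02 in the libraries labelled emb1579-1, with -1.62, -1.05 and -0.77 in emb1579-3 (adjusted p of 0.021 or less). Their Col-0 levels were 1.73 and 3.03 CPM, 4.30 and 5.64 CPM, and 5.396 and 8.54 CPM, higher in replicate 2 each time. Without that library 1 of these 6 calls held, that of trnR.1 in emb1579-3, and the other 5 had adjusted p-values up to 0.216. trnT.1 was also lost without emb1579-1 replicate 2 in that line, and without any 1 library of emb1579-3 in the other.

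Loci with a second copy in the inverted repeat took 0.191% to 0.322% of chloroplast counts. Among the protein genes there, rpl2.2 varied between replicates, with 389.8, 161 and 554 CPM in the libraries labelled emb1579-1, 245, 282 and 155 CPM in emb1579-3, and 447 and 416 CPM in Col-0. Its log2 fold changes of -0.23 and -0.93 had SEs of 0.55 and 0.54 (adjusted p = 0.84 and 0.32). ndhB.1 was lower in emb1579-3 (-0.33, adjusted p = 0.045, up to 0.343 without Col-0 replicate 1 or 4 of the mutant libraries) and ndhB.2 was not called there (0.00), with summed levels of 43.1 to 47.9 CPM, 39.5 to 44.2 CPM and 45.2 to 46.9 CPM, for the libraries labelled emb1579-1, emb1579-3 and Col-0 in turn. Of the genes named, psbB, psbD, psbN, psbM, psbT, psbH, psbJ, psbE, psbF, petN, psaJ, psaC, ndhF, ndhJ, ndhK, atpI, ccsA, rpoB, rpl20, rrn16S.1, ndhB.1, ndhB.2, rpl2.2 and RPOTp were chosen after their values were seen. So were trnC, trnF, trnP, trnS.2, rpl33, rps12C, PLT2 and SCR.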

How the data were processed

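RNA-seq counts of whole seedlings were analysed in 8 libraries, 3 labelled emb1579-1, 3 of emb1579-3 and 2 of Col-0. The deposited values are whole-number counts in 1 table of 33602 loci. Per the submitters' processing notes, reads were handled with FastQC, HISAT2, Cufflinks and Cuffdiff on the build TAIR10. How reads were counted, with or without strand, and where reads of repeated or overlapping loci went, no source used here says. A TruSeq kit was used, per the labels' protocols.

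The columns taken for emb1579-3 bear another number than the labels and were assigned because no other names were left, so a line outside the labels' description remains possible. Col-0 replicate 3 (1179413 counts) was left out. The series calls the libraries biological replicates without naming separate cultures, so p-values measure the spread between these libraries, which may be technical.

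The table holds locus identifiers only, and chloroplast loci were named from a hand-written list. Of 128 names compared, 127 fell in the order of TAIR10.1 (RefSeq) along the chloroplast molecule. Of 6 annotation notes that name a chloroplast locus, that of ndhK gives an older protein name and the rest the same protein. TAIR10.1 also gave exon lengths and sequences. A number after a point in a gene name tells loci of the same name apart. On the nuclear lists, 36 of 40 symbols were found in the annotation.

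The deposited counts were fitted with edgeR 4.0.16 (R 4.3.3) using TMM factors, filterByExpr, robust dispersions and the quasi-likelihood F-test on 20668 genes, with 1 coefficient per genotype and 5 residual degrees of freedom. Adjusted p-values are Benjamini-Hochberg over all genes tested. Where a pair of log2 fold changes or counts is given, the libraries labelled emb1579-1 come before emb1579-3. A second fit took the chloroplast total as library size. The fit was also run on counts simulated from the means and fitted dispersions of these data, which cannot test the calls given here. Shares were compared with two-sided exact permutation tests (Python 3.11.15). Alternatives were other size factors, other count filters, DESeq2 1.42.0, a replicate block, all 9 libraries and each library left out in turn. Named genes were psbA, rbcL and the 2 members of each functional group with the highest share. Added to these were the 6 highest and 6 lowest called fold changes per comparison and the 3 most abundant transfer RNA loci. Every called nuclear list member was named too. The others with values or calls of their own, apart from EMB1579, are listed as chosen later. The members, lists and tests were chosen with earlier results of these data known.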

Additional observations from a re-analysis of the deposited data

Results flagged for a closer look

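rrn16S.2 differed between the mutant lines as a share of chloroplast counts, with a log2 fold change of -0.95 for emb1579-3 against the libraries labelled emb1579-1. It was the only chloroplast locus called in that comparison on chloroplast totals, where 0.823% of all genes were called. The call was lost without emb1579-3 replicate 3 (adjusted p = 0.132), and on TMM-scaled totals the difference of -0.91 had an adjusted p of 0.083 in edgeR's quasi-likelihood test. The identical copy in the inverted repeat, rrn16S.1, had -0.79 (adjusted p = 0.56) there.

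Col-0 replicate 3, which no comparison uses, had its chloroplast counts in other genes than the remaining libraries. psbN held 26.8% of its 124424 chloroplast counts, against at most 0.195% in any of the 8 libraries used. rpl33 held 6.00% there, against at most 0.209%. Chloroplast loci took 10.5% of all counts of that library.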

How the results depend on the processing

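The share of chloroplast counts was lower in both mutant lines under every alternative except the use of all 9 libraries, where it was 4.62 and 5.09 percentage points higher than in Col-0. The exact permutation p over the 3 genotypes was 0.0286 without emb1579-3 replicate 3, and ranged from 0.0286 to 0.105 as libraries were left out. The differences from Col-0 ranged from -3.30 to -2.80 and from -3.15 to -2.05 percentage points, and that between the mutant lines from -0.0983 (without emb1579-3 replicate 1) to 1.00.

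Higher and lower calls of the libraries labelled emb1579-1, 2 and 24, became 0 and 0 with all 9 libraries, 9 and 10 on chloroplast totals and 8 and 43 with no filter, and ranged from 1 to 2 and from 10 to 28 as libraries were left out. Those of emb1579-3, 0 and 29, became 0 and 0, 3 and 10, and 4 and 44, and ranged from 0 to 1 and from 16 to 37. Between the lines, 0 and 0 became 0 and 1 on chloroplast totals, 3 and 8 with no filter and 1 and 2 with DESeq2, and ranged from 0 to 1 in each direction. DESeq2 called 35 and 38 lower against Col-0. On chloroplast totals, leaving out a library gave 2 to 20 higher and 1 to 14 lower calls for the libraries labelled emb1579-1, 0 to 4 and 3 to 16 for emb1579-3, and 0 to 1 and 0 to 1 between the lines; all 9 libraries gave 0 in every direction.

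Libraries of the same number did not deviate together (correlations over all genes of -0.107 to 0.116), so the replicate block is only an alternative. With it, higher and lower calls were 1 and 22 for the libraries labelled emb1579-1, 0 and 26 for emb1579-3 and 1 and 0 between the lines; on chloroplast totals they were 3 and 8, 1 and 11, and 1 and 1. The exact p of the share permuted within numbers was 0.111.

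With all 9 libraries, log2 fold changes turned positive for psbC (0.10 and 0.18) and RBCS2B (0.22 and 0.0386), RBCS3B (0.18 and 0.22), SIG2 (0.26 and 0.26) and SIG6 (0.25 and 0.24) in both lines. They also did so for rbcL (0.0356), SIG4 (0.0406) and PTAC6 (0.18) in the libraries labelled emb1579-1 and RBCS1B (0.25) in emb1579-3. The cause was not tested. With 2 Col-0 libraries, 1 control decides many calls, and the transfer RNA loci with the fewest counts are limited by depth.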
